A study of Homo sapiens with 6 samples.

Results

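The 10 genes described here are 8 metallothioneins (MT1E, MT1F, MT1G, MT1H, MT1M, MT1X, MT2A and MT3), the transcription factor MTF1 and the zinc transporter SLC30A1. They were taken by symbol from the gene column of the deposited files, which list 36601 genes, and all 10 were found. The data were single-cell RNA-seq libraries made with Seq-Well S3, a method that captures RNA from single cells on barcoded beads in small wells, from the neuroblastoma line SK-N-BE(2)-C, an established human cell line. The line was treated with the solvent DMSO as control, with TSA (as a rule short for trichostatin A, which blocks the catalytic site of histone deacetylases, HDACs) or with E6R, and each treatment has 2 libraries. By its title the series is about inhibiting an HDAC complex by a non-enzymatic route, and neither the structure of E6R nor any dose or time of treatment was stated in the sources used here. All cells were of this 1 line and were detached with TryplE, and no allele or transgene is named for any group.

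Metallothioneins are small cysteine-rich proteins that bind zinc, copper and cadmium and also react with oxidants. Many of their genes are classic targets of MTF1, a zinc finger protein that senses zinc in the cell and binds metal response elements in promoters. SLC30A1, also called ZnT1, exports zinc across the plasma membrane and is another target of MTF1. MT3 is the member best known from neurons, whereas MT2A and MT1X are active in many tissues.

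The metallothionein genes lie together on the long arm of chromosome 16. In GENCODE 29 on GRCh38, the 11 metallothionein genes of the files there span chr16:56565049-56684196. Along the chromosome, MT3 is at chr16:56589074-56591088, MT2A at chr16:56608199-56609497, MT1E at chr16:56625475-56627112, MT1M at chr16:56632233-56633986 and MT1F at chr16:56657694-56660698. They are followed by MT1G at chr16:56666731-56668065 on the minus strand, MT1H at chr16:56669814-56671129 and MT1X at chr16:56682424-56684196; the members other than MT1G are on the plus strand. MTF1 (chr1:37809567-37859620) and SLC30A1 (chr1:211571568-211578742) are both on the minus strand of chromosome 1.

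The promoters are shown because MTF1 is known to bind metal response elements there. RefSeq promoter sequences on GRCh38.p14 were at hand for 5 of the 10 members: MT2A, MT1X, MT1H, MTF1 and SLC30A1. The 250 bases before each RefSeq start were searched on both strands for the core of the metal response element, written as TGCACNC or TGCGCNC, and no matches overlapped in these 5 promoters. Of 35116 promoters searched in the same way, 24.8% held 1 match or more. MT1H held 8 matches, a number reached by 0.0171% of promoters, MT2A held 7 (0.0313%) and MT1X held 4 (0.37%). SLC30A1 held 1 match and MTF1 held none in this window. The sequences below show how densely the cores stand in the metallothionein promoters and the single core found in the SLC30A1 window. They run 5′ to 3′ on the strand of the gene, with the matches in capitals. MT1H is shown over chr16:56669564-56669813, MT1X over chr16:56682220-56682423, and SLC30A1 over chr1:211579162-211579411 on the minus strand. The MT2A window lies inside the annotated first exon of a longer GENCODE transcript, so only matches 2 and 3 from its upstream end (chr16:56608416-56608437) and its match nearest the start, with the TATA-like stretch before it (chr16:56608553-56608582), are shown.
MT1H: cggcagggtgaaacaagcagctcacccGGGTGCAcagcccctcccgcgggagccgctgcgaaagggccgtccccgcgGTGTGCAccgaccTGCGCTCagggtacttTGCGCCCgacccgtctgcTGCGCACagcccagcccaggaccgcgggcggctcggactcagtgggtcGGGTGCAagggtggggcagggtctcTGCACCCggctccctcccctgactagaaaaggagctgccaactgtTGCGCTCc
MT1X: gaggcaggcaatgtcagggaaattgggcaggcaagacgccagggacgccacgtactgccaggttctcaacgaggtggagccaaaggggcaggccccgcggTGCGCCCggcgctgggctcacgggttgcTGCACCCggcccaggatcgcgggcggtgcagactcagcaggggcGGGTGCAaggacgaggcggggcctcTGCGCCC
MT2A, matches 2 and 3: GTGTGCAgagccgggTGCGCCC
MT2A, match nearest the start: gctataaacactgcttgccgcgcTGCACTC
SLC30A1: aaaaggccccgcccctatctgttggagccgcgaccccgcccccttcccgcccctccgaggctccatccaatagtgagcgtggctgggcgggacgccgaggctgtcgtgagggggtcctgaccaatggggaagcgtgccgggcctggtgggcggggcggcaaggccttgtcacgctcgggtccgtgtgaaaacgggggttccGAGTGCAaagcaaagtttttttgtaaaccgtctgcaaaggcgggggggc

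Barcodes with at least 500 detected genes and at most 20% mitochondrial UMIs were kept as cells, 17589 in all and 1861 to 3946 per library. The cells of a library held between 4206366 and 26180262 unique molecular identifiers (UMIs), and the DMSO libraries were the shallowest. Pairs of libraries shared 11 to 58 cell barcodes. All 10 adrenergic neuroblastoma markers had UMIs in all 6 libraries, and their summed level was 2675 to 4269 CPM (UMIs of a gene scaled to a common library size). Markers of blood cells summed to 0.865 to 2.51 CPM. DMSO replicate 2 held RNA of the liver genes ALB (11.1 CPM), APOA1 (5.36) and TTR (1.53), and the 3 summed to 0.414 to 1.20 CPM in the other libraries. Fibroblast markers summed to 98.6 and 25.1 CPM under DMSO, 125 and 78.4 under TSA and 255 and 27.3 under E6R (replicates 1 and 2). Epithelial markers, chiefly KRT19, summed to 47.6 and 83.0 CPM under DMSO, 12.8 and 15.6 under TSA and 46.9 and 98.0 under E6R, so they were lower in both TSA libraries. The mitochondrial share of UMIs was 5.83% and 6.20% under DMSO, 6.08% and 9.71% under TSA, and 1.55% and 1.51% under E6R. The part of the fibroblast and epithelial markers and of the mitochondrial share in the results below was not tested.

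Under TSA, the metallothionein transcripts that were abundant enough to test rose, and under E6R no member changed past the threshold against DMSO. MT2A and MT1X, the most abundant metallothioneins, rose about 8-fold and 10-fold, and MT1F, MT1G and MT3 went from at most 2 UMIs in a DMSO library to between 36 and 75 UMIs in each TSA library. MTF1 rose 2.18-fold and SLC30A1 1.88-fold. A gene counted as changed at an adjusted p under 0.05 in edgeR's quasi-likelihood test on library sums. By this rule 7 of the 7 members tested rose under TSA, where 16.2% of the 16763 genes tested rose and 29.7% changed in either direction. With 1 DMSO or TSA library left out, which leaves 1 library in that group, fewer members and fewer of all genes tested were called. When cells were thinned to 1000 UMIs, 3 of the 5 members still tested were called, where 3428 of all 11822 genes tested were called. The median log2 fold change of the 7 was 3.34, beside -0.01 over all genes tested. MT1F, MT1G and MT3 passed the low-count filter through their TSA libraries alone, so their passing and their rise are not separate facts. They enter both the count of 7 and this median. The other members tested had log2 fold changes of 2.98 (MT2A), 3.34 (MT1X), 1.12 (MTF1) and 0.91 (SLC30A1). MT1E, MT1H and MT1M did not pass the filter. The labels name the libraries of a treatment as replicates and say nothing of separate cultures, so the p-values measure the spread between these libraries, which may be technical.

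**Figure D1:**
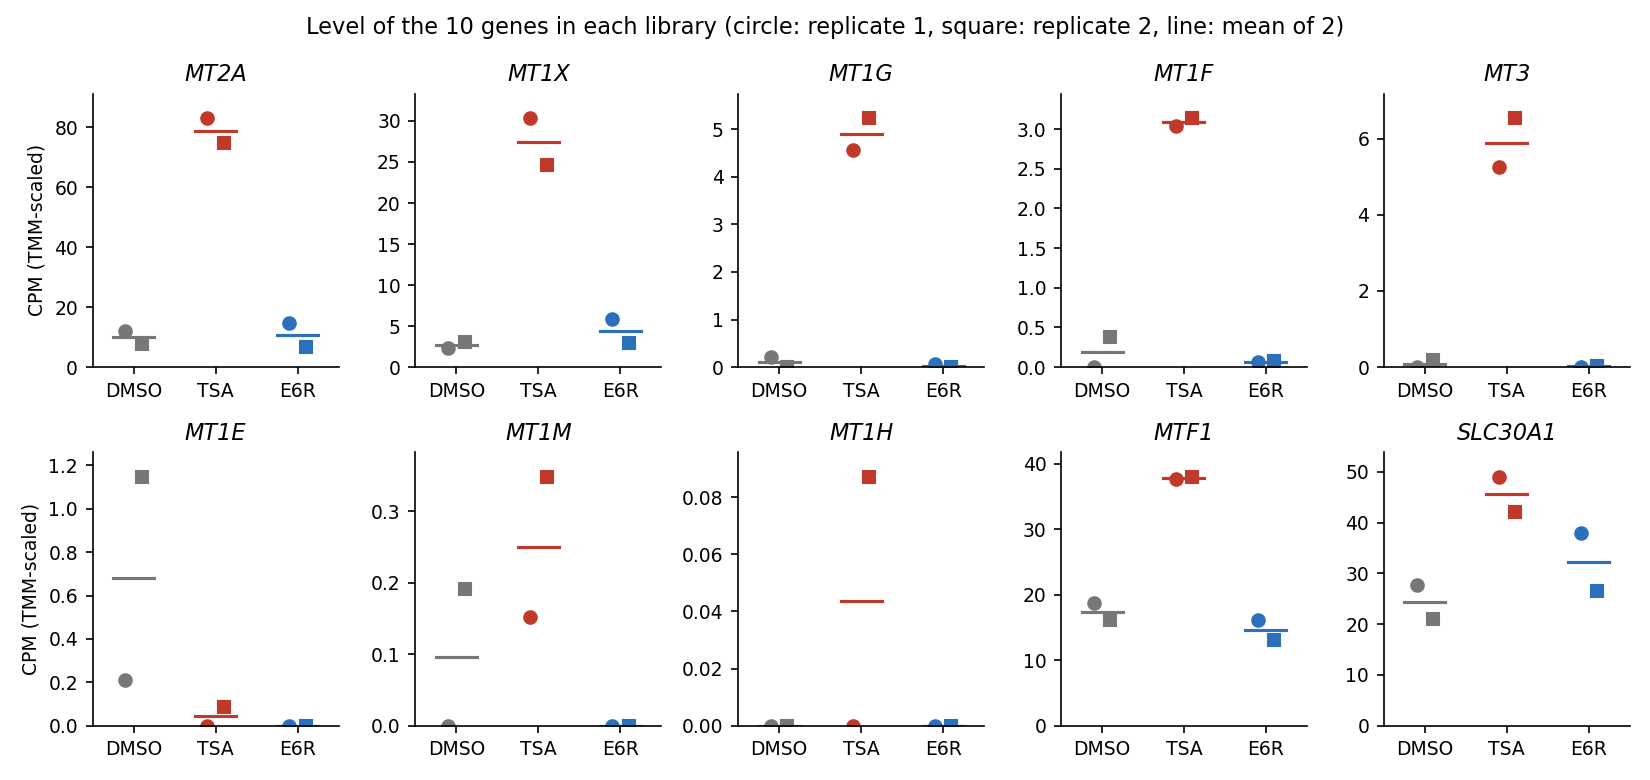
Level of each of the 10 genes in each library, in CPM with TMM-scaled library sizes; each panel has its own linear axis from 0, circles are replicate 1, squares replicate 2 and lines the mean of 2 libraries. MT2A stood at 83.0 and 74.6 CPM under TSA against 12.1 and 7.84 under DMSO, while MT1E, MT1M and MT1H had so few UMIs that single molecules set the height of their points.

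MT2A encodes the metallothionein that made up most of the family's RNA in these cells. Its level was 12.1 and 7.84 CPM in DMSO replicates 1 and 2, 83.0 and 74.6 CPM under TSA, and 14.7 and 6.58 CPM under E6R, with CPM scaled by TMM library sizes. Both TSA libraries lay far above the other 4, and the E6R values enclosed the DMSO values. The log2 fold change of TSA against DMSO was 2.98 (SE 0.41, 95% interval 2.03 to 3.94, edgeR adjusted p = 0.00257). These levels rest on 57 and 41 UMIs under DMSO, 1092 and 857 under TSA, and 232 and 175 under E6R.

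MT1X is the most abundant member of the MT1 subfamily here. It measured 2.34 and 3.06 CPM under DMSO, 30.3 and 24.6 under TSA and 5.81 and 2.97 under E6R. The TSA libraries were again the highest, and E6R replicate 2 lay between the DMSO libraries while E6R replicate 1 lay above both. The log2 fold change of TSA against DMSO was 3.34 (SE 0.44, 95% interval 2.33 to 4.35, edgeR adjusted p = 0.00213). The DMSO level rests on 11 and 16 UMIs. Over the alternatives tried, adjusted p was between 4.72e-11 and 0.0235 for MT1X and between 5.04e-17 and 0.0262 for MT2A.

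MT1F, MT1G and MT3 were close to the limit of detection without TSA. MT1F had 0 and 2 UMIs under DMSO, 40 and 36 under TSA and 1 and 2 under E6R. MT1G had 1 and 0 UMIs under DMSO, 60 and 60 under TSA and 1 and 0 under E6R. MT3 had 0 and 1 UMIs under DMSO, 69 and 75 under TSA and 0 and 1 under E6R. For these 3 genes every TSA library stood above all of the other libraries, at 3.04 and 3.13 CPM for MT1F, 4.56 and 5.22 for MT1G and 5.24 and 6.53 for MT3. Over the summed counts of a group, the ratio of TSA to DMSO was 15.3 for MT1F (exact 95% interval 4.10 to 129), 48.4 for MT1G (8.52 to 1926) and 58.0 for MT3 (10.3 to 2308); the intervals cover counting error only. The edgeR adjusted p was 0.0170 for MT1F, 0.00782 for MT1G and 0.00443 for MT3. The MT1F call depended on single libraries. Its fitted log2 fold change, 3.89 with all libraries, was 3.02 without DMSO replicate 1 (adjusted p = 0.0672), 3.94 without TSA replicate 1 (0.0909), 3.91 without TSA replicate 2 (0.0965) and 8.40 without DMSO replicate 2, the library that holds its DMSO UMIs (0.0278). It was 8.10 without cells of shared barcodes (adjusted p = 0.00612). MT1G, fitted at 5.46, lost its call without TSA replicate 2 (5.40, adjusted p = 0.0603) and was 9.10 without DMSO replicate 1 and 4.39 without DMSO replicate 2. MT3, fitted at 5.74, was 4.92 without DMSO replicate 1 and 9.33 without DMSO replicate 2. All 3 genes passed the low-count filter through their TSA libraries alone. With DMSO counts this low the fitted sizes depend on the prior count.

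MT1E, MT1M and MT1H stayed too low to test. MT1E had 1 and 6 UMIs under DMSO, 0 and 1 under TSA and none in either E6R library, so it was not among the metallothioneins seen to be higher under TSA. The summed DMSO level of MT1E was 17.4 times that of TSA (exact 95% interval 2.23 to 783) and at least 9.96-fold higher than that of E6R, taking 3 counts over the group as the floor. That difference rests on DMSO replicate 2, which holds 6 of the 7 DMSO UMIs and is also the library with liver transcripts. Those 6 UMIs lay in 6 cells, and 0 of them lay in the 66 cells, of 3132, with a UMI of ALB, APOA1 or TTR; those cells held 2 of the 41 MT2A UMIs and 1 of the 16 MT1X UMIs of that library. With so few UMIs and cells, these counts leave the source of the MT1E UMIs undetermined. MT1M had 0 and 1 UMIs under DMSO, 2 and 4 under TSA and 0 under E6R, and its ratio of TSA to DMSO was 2.42 (exact 95% interval 0.293 to 111). MT1H, whose promoter held the most motif matches, had 1 UMI in TSA replicate 2 and 0 in the other 5 libraries.

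MT2A made up 61.2% to 81.4% of the metallothionein UMIs of a library and MT1X 15.7% to 30.7%. In the TSA libraries MT3 made up 4.15% and 5.70%, MT1G 3.61% and 4.56% and MT1F 2.41% and 2.73%. Between genes, levels are set side by side both in CPM and per length. In CPM, SLC30A1 (27.6 and 21.0) and MTF1 (18.7 and 16.1) stood above MT2A (12.1 and 7.84) and MT1X (2.34 and 3.06) under DMSO, whereas MT2A was the highest member under TSA. Per length the order is another; the transcript lengths used were 786 bases for MT2A, 450 for MT1X, 405 for MT1G, 569 for MT3, 690 for MT1F, 5474 for SLC30A1 and 7972 for MTF1. In CPM per kilobase of transcript, TSA replicates 1 and 2 gave 105.5 and 94.9 for MT2A and 67.4 and 54.8 for MT1X. MT1G followed at 11.3 and 12.9 and MT3 at 9.21 and 11.5, and these 2 overlapped. Below them stood SLC30A1 at 8.95 and 7.70, MTF1 at 4.73 and 4.76 and MT1F at 4.40 and 4.54. Under DMSO the order was MT2A at 15.4 and 9.98, MT1X at 5.19 and 6.80, SLC30A1 at 5.05 and 3.84 and MTF1 at 2.35 and 2.02 CPM per kilobase, and no neighbours in that order overlapped. Under E6R, MT2A (18.7 and 8.38) overlapped MT1X (12.9 and 6.61), MT1X overlapped SLC30A1 (6.94 and 4.85), and MTF1 (2.01 and 1.64) was lowest. Beads capture the 3′ ends of transcripts, so a UMI count does not grow with length; dividing by length lowers the long MTF1 and SLC30A1 and sets their place in the order per kilobase, which also depends on the transcript chosen.

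Several metallothioneins have close copies, and the sources used here do not say how reads that fit more than 1 gene were treated. In the last 300 bases of the transcript, the share of stretches of 50 bases found word for word in another gene was 30.7% for MT1X, 28.7% for MT1G, 28.3% for MT1H, 19.1% for MT1M, 14.3% for MT2A, 11.95% for MT1E and 9.16% for MT1F. For these 7 genes the split of UMIs between copies is uncertain. MT3, MTF1 and SLC30A1 shared none. MT1X overlaps the gene AC026461.1, and MTF1 overlaps AL929472.4 on the other strand.

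MTF1, the metal-sensing factor itself, was at 18.7 and 16.1 CPM under DMSO, 37.7 and 38.0 under TSA and 16.05 and 13.1 under E6R. The TSA libraries differed little from each other and stood above the other 4. The log2 fold change of TSA against DMSO was 1.122 (SE 0.24, 95% interval 0.57 to 1.68, edgeR adjusted p = 0.0118). The call was lost without DMSO replicate 2 (log2 fold change 0.94, adjusted p = 0.0920), without TSA replicate 1 (1.16, adjusted p = 0.0740) and without TSA replicate 2 (1.16, adjusted p = 0.0818). When each cell was thinned to 1000 UMIs the log2 fold change was 0.55 (adjusted p = 0.168).

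SLC30A1, the zinc exporter, was at 27.6 and 21.0 CPM under DMSO, 49.0 and 42.1 under TSA and 38.0 and 26.5 under E6R. The TSA libraries stood above the rest, and the E6R and DMSO libraries overlapped. The log2 fold change of TSA against DMSO was 0.91 (SE 0.27, 95% interval 0.29 to 1.52, edgeR adjusted p = 0.0366). Leaving out either DMSO or either TSA library ended the call, with log2 fold changes between 0.65 and 1.15 and adjusted p of 0.0699 and 0.228 for DMSO replicates 1 and 2 and 0.181 and 0.110 for TSA replicates 1 and 2. Scaling by total counts alone gave 0.60 (adjusted p = 0.135), cells with at least 1000 genes gave 0.78 (adjusted p = 0.0604), and cells thinned to 1000 UMIs gave 0.40 (adjusted p = 0.282). The change in SLC30A1 was positive in each of these fits.

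**Figure D2:**
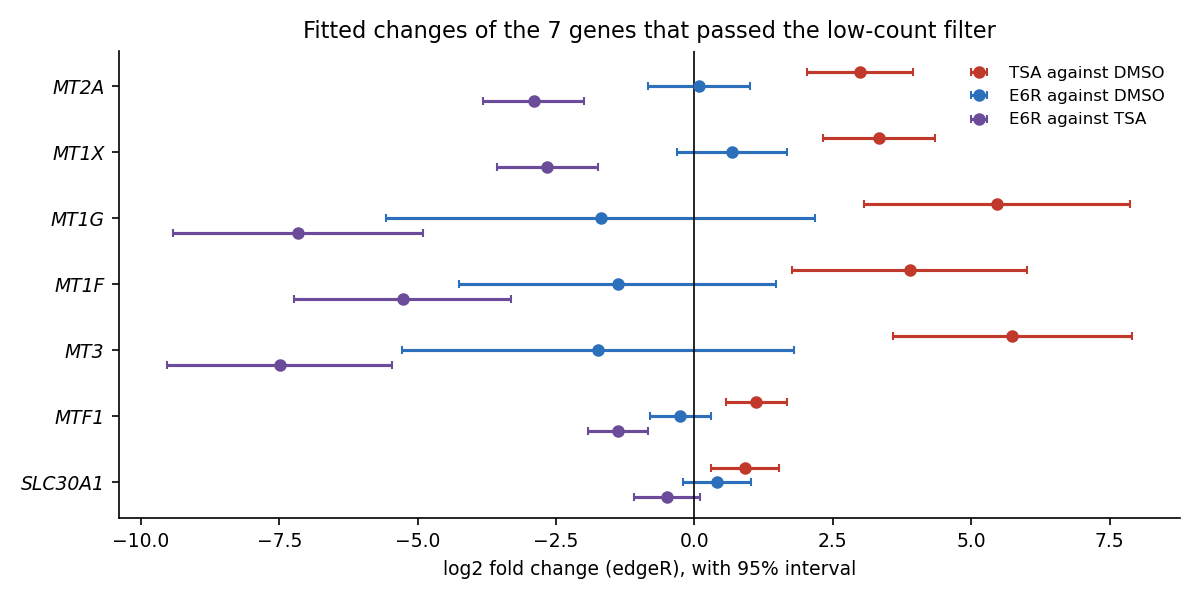
Fitted log2 fold change (points) with its 95% interval (bars) for the 7 members that passed the low-count filter, in the comparisons of TSA against DMSO (red), E6R against DMSO (blue) and E6R against TSA (purple). The red intervals lie above 0 for all 7 members and the blue ones cross 0; MT1G, MT1F and MT3 have the widest bars and had 1 or 2 UMIs in the DMSO libraries together, so the size of their fitted change depends on the prior count.

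Against DMSO, E6R changed no member past the threshold: 0 of the 7 tested were called by edgeR, beside 0% of all 16763 genes, and DESeq2 called 0 members and 415 genes. At an unadjusted p under 0.05 the counts were 0 members and 2913 genes. For MT2A the log2 difference was 0.08 with a 95% interval of -0.85 to 1.01, so a change between 0.557-fold and 2.02-fold lies within it. For MT1X it was 0.68 (-0.31 to 1.68), for MTF1 -0.26 (-0.81 to 0.30) and for SLC30A1 0.41 (-0.21 to 1.02). MT1F, MT1G and MT3 had 3, 1 and 1 UMIs over both E6R libraries and 2, 1 and 1 over both DMSO libraries, too few for a fold change. The comparisons of TSA and of E6R with DMSO use the same DMSO libraries.

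Set directly against TSA, E6R left 6 of the 7 tested members lower, where 19.5% of all genes were lower. Of the 6, MT1F, MT1G and MT3 had been tested only through their TSA libraries, so their being lower is bound to their being tested, and MT2A, MT1X and MTF1 are the members that passed the filter without this. MT2A was lower by a log2 fold change of -2.90 (SE 0.40, edgeR adjusted p = 0.00149) and MT1X by -2.66 (SE 0.39, adjusted p = 0.00204). MTF1 differed by -1.38 (SE 0.23, adjusted p = 0.00343). Over the summed counts, TSA exceeded E6R by a ratio of 43.6 for MT1F (exact 95% interval 14.4 to 216), 206 for MT1G (36.4 to 8221) and 248 for MT3 (43.8 to 9852), with edgeR adjusted p of 0.00273, 0.00149 and 0.000911. SLC30A1 was the exception, at -0.50 (95% interval -1.10 to 0.09, adjusted p = 0.159), so its E6R level was not separated from either the TSA or the DMSO level.

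Few cells held a metallothionein UMI at matched depth, and their share was higher under TSA. Among cells thinned to 1000 UMIs, the share with a UMI of any of the 8 metallothioneins was 1.60% (exact 95% interval 0.966 to 2.49) and 1.01% (0.590 to 1.61) in DMSO replicates 1 and 2. It was 8.86% (7.60 to 10.2) and 7.996% (7.02 to 9.07) under TSA, and 2.18% (1.61 to 2.88) and 1.08% (0.691 to 1.60) under E6R. The TSA shares lay above the others, and the E6R and DMSO shares overlapped. For MT2A alone the shares were 1.18% and 0.476% under DMSO, 5.51% and 4.98% under TSA and 1.501% and 0.763% under E6R. Without thinning, 3.55% and 2.04% of DMSO cells, 26.8% and 22.1% of TSA cells and 8.48% and 4.76% of E6R cells held a metallothionein UMI. Depth enters those shares and differed between libraries. The median UMIs per cell were 1268 and 1053.5 under DMSO, 1728 and 1876 under TSA and 1880 and 1124 under E6R. The 1% of cells with most UMIs held 22.5% of the UMIs of E6R replicate 2 and 8.77% to 15.6% in the other libraries. Thinning left out 674 and 1450 cells under DMSO, 615 and 503 under TSA and 692 and 1718 under E6R. With 1 cell line, no cell type that should lack these genes was at hand to set the background.

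**Figure D3:**
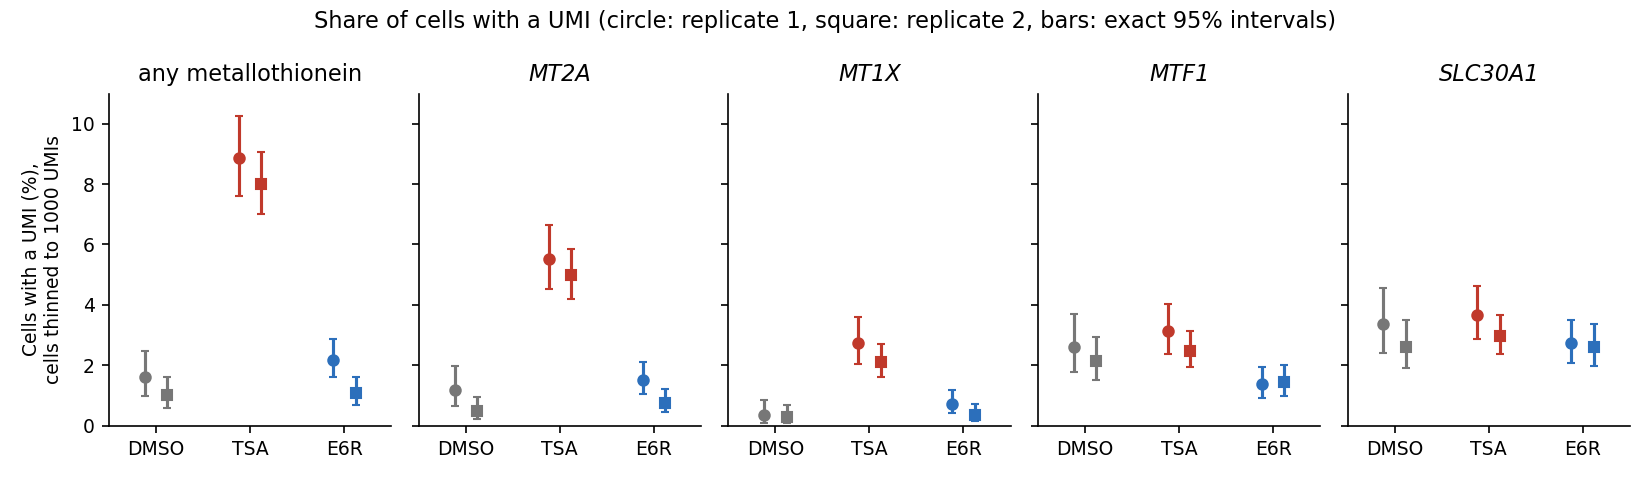
Percent of cells with at least 1 UMI of any metallothionein, MT2A, MT1X, MTF1 or SLC30A1 after each cell was thinned to 1000 UMIs; circles are replicate 1, squares replicate 2 and bars exact 95% intervals for counting error. The TSA libraries stand apart for the metallothioneins (8.86% and 7.996% of cells against at most 2.18% elsewhere), whereas the SLC30A1 intervals of the 3 treatments overlap.

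Without thinning, the 1092 MT2A UMIs of TSA replicate 1 lay in 497 of 2467 cells and the 857 of TSA replicate 2 in 533 of 3292. The 1% of cells with most MT2A UMIs held 26.4% and 25.9% of them. At 1000 UMIs per cell the counts are too low to show how MT2A was spread among cells. The largest MT2A count in 1 cell was 34 UMIs, in a cell of TSA replicate 1 with 36128 UMIs. Among the 689 cells of TSA replicate 1 that could be thinned to 5000 UMIs, MT1X was found in 14.0% of the 186 cells with MT2A and in 10.3% of the 503 cells without it. In TSA replicate 2 the shares were 14.7% of 157 and 8.29% of 422. For the rarer MT1F, MT1G and MT3 the order differed between the replicates. With and without MT2A, MT1F was in 1.61% and 1.79% in replicate 1 and 1.27% and 0.474% in replicate 2. MT1G gave 3.76% and 1.19%, then 0% and 1.90%. MT3 gave 3.23% and 2.78%, then 1.91% and 2.84%. At 1000 UMIs per cell, MT1X gave 1.96% and 2.80%, then 2.16% and 2.11%. The cells of a library share their well array and amplification, so these shares are a description and carry no test. For MTF1 the thinned shares were 2.61% and 2.14% under DMSO, 3.13% and 2.47% under TSA and 1.36% and 1.44% under E6R. The DMSO and TSA libraries overlapped on this measure, and both E6R libraries lay below them. In the fit on thinned cells, the log2 fold change of MTF1 for E6R against DMSO was -0.75 and was not called (edgeR adjusted p = 0.669). SLC30A1 was found in 3.37% and 2.62% of thinned DMSO cells, 3.67% and 2.98% of TSA cells and 2.73% and 2.60% of E6R cells. Thinned shares weigh each cell equally and leave out shallow cells, whereas the library sums weigh cells by their UMIs.

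The genes around the cluster were called about as often as genes in general. Of 19 protein-coding neighbours on chromosome 16 taken as a list, 17 were tested; 2 rose, 3 fell and 12 did not pass the threshold under TSA, where 29.7% of all genes were called, and their median log2 fold change was -0.07. On the side of MT3 the nearest of them was BBS2, whose start lies at -87.9 kb from that of MT2A, with a log2 fold change of 0.69 (SE 0.31, edgeR adjusted p = 0.126). On the side of MT1X it was NUP93, a nuclear pore protein, whose start lies at 122 kb from that of MT2A and which rose by 1.20 (SE 0.30, adjusted p = 0.0201). POLR2C, a subunit of RNA polymerase II, rose by 0.76 (adjusted p = 0.0172). COQ9, needed for coenzyme Q synthesis, fell by 0.93 (adjusted p = 0.0117), and ARL2BP, named after its values were seen, fell by 0.71 (adjusted p = 0.0486). No neighbour was called under E6R against DMSO, and 2 of the 17 tested had an unadjusted p under 0.05, as had 2913 of all 16763 genes. Of the metallothionein genes outside the 10, MT1A had 2 and 3 UMIs in the TSA libraries and 0 elsewhere, MT1B had 5 UMIs in DMSO replicate 2, 1 of them in a cell with a liver marker, and 1 in E6R replicate 2, and MT4 had 0 in all libraries.

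**Figure D4:**
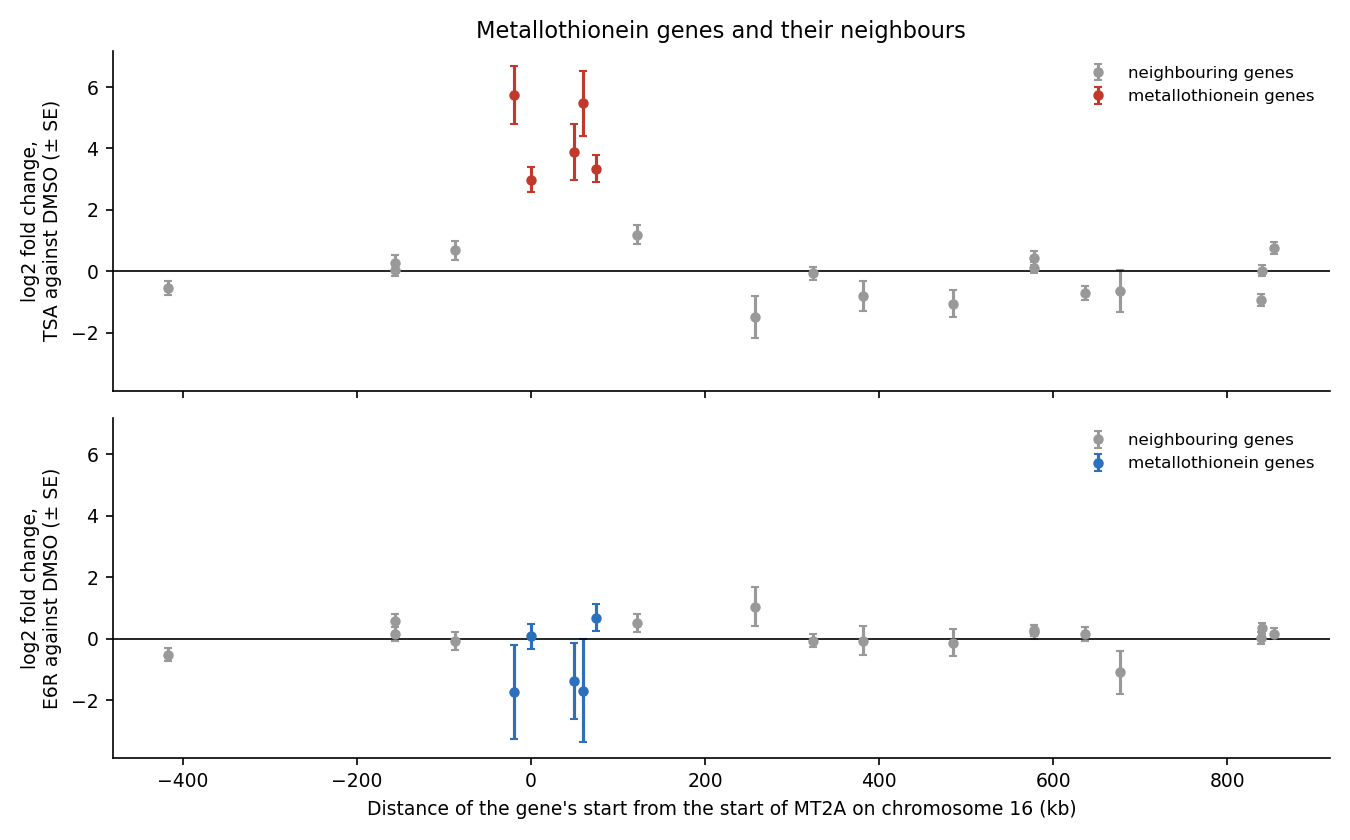
Log2 fold change with its SE (bars) for the tested metallothionein genes (coloured) and 16 of the 17 tested neighbouring genes (grey), by distance of the gene's start from that of MT2A in kilobases; the upper panel is TSA against DMSO and the lower panel E6R against DMSO. Under TSA the 5 metallothionein points lie between 2.98 and 5.74, while the grey points lie between -1.47 and 1.20.

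Other genes of metal handling are read against the same background, in which 16.2% of all genes rose and 29.7% changed under TSA. Of 10 zinc exporter genes besides SLC30A1, 7 were tested; 2 rose under TSA, 0 fell and 5 did not pass the threshold. SLC30A9 was at 104.7 and 99.5 CPM under DMSO, 205.2 and 182.7 under TSA and 119.3 and 117.2 under E6R, a log2 fold change of 0.93 for TSA (SE 0.18, edgeR adjusted p = 0.00850). SLC30A3, which loads zinc into synaptic vesicles and was named after its values were seen, was at 4.89 and 2.30 CPM under DMSO, 26.7 and 20.4 under TSA and 1.90 and 0.753 under E6R, a log2 fold change of 2.72 for TSA (SE 0.54, adjusted p = 0.00877). Of 14 zinc importers of the SLC39 family, 11 were tested and 1 rose: SLC39A9, from 56.5 and 86.3 CPM under DMSO to 181 and 185 under TSA (log2 fold change 1.36, SE 0.24, adjusted p = 0.00608). The median log2 fold change under TSA was 0.63 for the exporters tested and 0.11 for the importers.

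Among 14 genes of copper handling, all tested, 3 rose and 0 fell under TSA, with a median log2 fold change of 0.21. CCS, the copper chaperone of superoxide dismutase, was at 29.5 and 30.8 CPM under DMSO and 103.3 and 52.2 under TSA, where the TSA replicates differed widely (log2 fold change 1.37, SE 0.32, edgeR adjusted p = 0.0162). The copper pumps ATP7A (1.09, adjusted p = 0.00929) and ATP7B (1.84, adjusted p = 0.0189), the second named after its values were seen, also rose. Among 14 genes known to be induced by heavy metals or oxidants, all tested, 2 rose, 4 fell and 8 did not pass the threshold, with a median of 0.30. The heat shock genes DNAJB1 (log2 fold change 1.74, adjusted p = 0.00267) and HSPA1B (1.37, adjusted p = 0.00442) rose; HSPA1B has a near-identical copy, HSPA1A, so its level is uncertain. NQO1, a quinone reductase, fell by 1.95 (adjusted p = 0.00507), and GCLM, a subunit of the enzyme that starts glutathione synthesis, fell by 1.02 (adjusted p = 0.0131). SLC7A11, the cystine importer, fell by 2.75 (adjusted p = 0.00559), and SELENOH fell by 0.81 (adjusted p = 0.0237); both were named after their values were seen. Under E6R against DMSO edgeR called 0 genes in each of these 4 lists. At an unadjusted p under 0.05 the counts were 3 of 7 exporters, 3 of 11 importers, 3 of 14 copper genes and 2 of 14 heavy metal or oxidant genes. Over all 16763 genes tested that count was 2913.

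The summed level of the 8 metallothioneins was 14.9 and 12.8 CPM under DMSO, 126 and 115 under TSA and 20.6 and 9.67 under E6R. Of 7514 other tested genes with a mean of at least 20 CPM, 5 had the smallest root mean square distance from this profile over the 6 libraries, on the scale of log2(CPM + 1) centred on each gene's mean. They were RGL1 (distance 0.191), MCAM (0.219), SAT1 (0.253), PCDH10 (0.266) and ABAT (0.271). RGL1, an exchange factor for Ral proteins, was at 11.7 and 6.69 CPM under DMSO, 93.9 and 93.7 under TSA and 13.1 and 6.96 under E6R. SAT1, which acetylates polyamines for breakdown and export, was at 31.4 and 18.4 CPM under DMSO, 300.3 and 237 under TSA and 40.7 and 24.1 under E6R. MCAM and PCDH10 encode cell adhesion proteins, and ABAT encodes the enzyme that degrades the transmitter GABA.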

How the data were processed

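The authors deposited raw UMI counts per gene and barcode, not normalized; the submitters' processing notes name STARsolo 2.7.9a and GRCh38, while the rules for multi-gene reads, strand and doublets are not given in the sources used here. Counts were summed over kept cells (at least 500 genes, at most 20% of UMIs from 13 mitochondrial genes) per library, since cells are not replicates; no doublet caller was run. The 6 sums entered 1 fit of edgeR 4.0.16 (R 4.3.3; TMM, filterByExpr, quasi-likelihood F test, group only, Benjamini-Hochberg over 16763 genes). SEs come from the F statistic, and intervals of log2 fold changes from a t distribution with 7.96 degrees of freedom. An exact permutation test of 2 libraries against 2 cannot go below p = 0.333, so single values carry no test. DESeq2 1.42.0 was an alternative. The fit was tested on simulated counts. Gene models were from GENCODE 29 (94.6% of gene IDs matched) and promoters from RefSeq.

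Members and lists were chosen with earlier results of these data known. All 10 members are named; from each list, the called genes with the 2 largest rises and 2 largest falls under TSA and a mean of at least 20 CPM are named, with any called under E6R, as are the 5 genes nearest the summed metallothionein profile. Of these, 1 neighbouring gene is not reported here.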

Additional observations from a re-analysis of the deposited data

Results flagged for a closer look

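Barcodes left out of the cells also carried the higher metallothionein level under TSA. In plain CPM of their own UMIs, the 8 metallothioneins summed to 81.6 in the small barcodes of TSA replicate 1 and 58.5 in those of TSA replicate 2, above 14.6 and 14.3 in the 2 DMSO libraries. E6R gave 18.4 and 8.39. In the kept cells of the same libraries the sums were 116 and 98.9 plain CPM under TSA, 16.6 and 14.0 under DMSO and 20.7 and 9.82 under E6R. These barcodes held 14.0% and 14.9% of the metallothionein UMIs of the TSA libraries, and MT2A alone stood at 50.2 and 41.7 CPM in them. Of the UMIs of all genes, these barcodes held 3309228 of 17591510 in TSA replicate 1 and 3929320 of 17247520 in TSA replicate 2, a larger share in both. Their part in the levels of the kept cells was not tested.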

How the results depend on the processing

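The counts of called members were recomputed under 18 alternatives. Single genes had 18 too, except MT1F and MT1G (16 or 17) and MT3 for E6R against DMSO (17), which were not tested in the rest; shares of cells had 1, the unthinned share. The number of members called for TSA against DMSO, 7 as reported, was 3 to 7 over the 18. It was lower with 1 DMSO or TSA library left out, as was the number of all genes called. After thinning cells to 1000 UMIs it was 3 of the 5 still tested, where 3428 of all 11822 genes tested were called. MT1X and MT2A kept their call in all 18. MT3 did so too, but it passed the low-count filter through its TSA libraries alone, so its passing and its call are not separate facts. E6R against DMSO gave 0 called members in each alternative, and E6R against TSA gave 4 to 6. Directions turned only for E6R against DMSO, in values that did not pass the threshold. The log2 fold change of MT2A there was -0.056 by total counts only and -0.013 in cells with at least 1000 genes, and -0.49 to 0.60 with 1 library left out. MT1F ranged from -2.19 to 3.22, MT1G from -3.39 to 1.97 and MT3 from -3.17 to 1.90 with 1 library left out. MT1F was 3.10 without cells of shared barcodes, MT3 was 1.70 in cells with at least 1000 genes, and SLC30A1 was -0.16 in thinned cells. Leaving out cells with shared barcodes or with a liver marker UMI were alternatives chosen after seeing the data, and both kept 7 members called under TSA. All genes called there numbered 4974 of 16533 and 4952 of 16707. With the replicate block, 7, 0 and 6 members were called for TSA against DMSO, E6R against DMSO and E6R against TSA. The same fits called 6047, 19 and 7567 of all 16763 genes. Same-numbered libraries deviated together (r = 0.242 for DMSO with TSA, 0.564 for DMSO with E6R and 0.166 for TSA with E6R over 7515 genes). The labels say only that they share a number. Depth limits the rare members: 1 UMI is worth 0.213 and 0.191 CPM in the DMSO libraries. The causes of these shifts were not tested.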
